A study of Mus musculus with 30 samples.

Results

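The genes described here are 10 chaperones and co-chaperones of mouse that are classical targets of heat-shock factor 1: Hspa1a, Hspa1b, Hspa8, Hsph1, Dnajb1, Hsp90aa1, Hspd1, Hspe1, Bag3 and Hspb1. They were chosen by name. All 10 were matched among the 57186 gene identifiers of the count matrix through their Ensembl identifiers with the version removed. Their mRNA was measured by RNA sequencing in 2 mouse lines during treatment with cycloheximide, a drug that blocks translation elongation, at 0.1 µg/mL. NIH/3T3, a fibroblast line, was kept in DMEM with serum. CGR8, a line of embryonic stem cells, was kept in 2i/LIF conditions on N2B27. Both lines, the 0 h libraries included, carried the genotype written as ROSA26 SLT knock-in in the labels, and the meaning of SLT is not given in the sources used here. RNA was taken at 0, 1, 2, 5 and 48 h in 3 replicates, A to C, of each line and time. The 0 h libraries serve as the untreated point of their line, although the treatment field of the labels names the drug for every library. The labels do not say whether replicates were separate cultures, so p-values measure the spread between these libraries, which may be technical.

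Heat-shock factor 1 is a transcription factor that chaperones hold inactive in unstressed cells. When misfolded proteins occupy those chaperones, the factor forms trimers and binds heat-shock elements, which are inverted repeats of the bases GAA, in the promoters of chaperone genes. Newly made proteins are among the main clients of the cytosolic HSP70 and HSP90 machines, and mitochondrial matrix proteins are folded in the HSP60 chamber. Embryonic stem cells are known for abundant constitutive chaperones of the HSP70 and HSP90 families.

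Promoter sequences are shown for the genes whose windows held the core of a heat-shock element, because heat-shock factor 1 binds such elements. The windows are from RefSeq on build GRCm38.p6, and 8 of the 10 genes had one. Hspa8 and Hsp90aa1 had none. Both pairs of repeats, GAANNTTC and TTCNNGAA, read the same on both strands and were searched in the 250 bases before the start. Capitals mark these pairs and the letters CCAAT or ATTGG.
Hspa1a, chr17:34972212-34972271, minus strand: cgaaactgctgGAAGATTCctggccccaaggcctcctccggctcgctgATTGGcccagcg
Hspa1b, chr17:34959294-34959353, minus strand: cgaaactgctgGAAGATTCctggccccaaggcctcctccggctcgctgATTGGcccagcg
Hsph1, chr5:149636357-149636386, minus strand: tccATTGGgtagaatctTTCTCGAAggctc
Hspe1, chr1:55088053-55088082, plus strand: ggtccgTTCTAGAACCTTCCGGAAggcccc
Hspb1, chr5:135887794-135887835, plus strand: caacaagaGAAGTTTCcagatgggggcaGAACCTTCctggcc
The Hspa1a and Hspa1b stretches are identical, and over 250 bases the 2 windows differed at 3. A triple repeat of either form occurred in 0.466% of the 32851 windows, and Hspe1 held overlapping pairs that form 2 overlapping triples. Hspd1, which is read in the opposite direction from the same stretch, has this element in a window of its own. Hspb1 held 2 pairs, and Hsph1 held 1 pair close to its start. Either pair occurred in 12.8% of all windows, and CCAAT or ATTGG in 33.8%. In the windows of Dnajb1 and Bag3 these pairs were not found, which says only that the letters are not in the part searched.

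Libraries held 18.2 to 30.5 M counts (mega-counts). The 6 stem cell markers chosen for the check, Pou5f1 and Nanog among them, did not exceed 0.383 CPM in NIH/3T3 and were at least 376 CPM in CGR8, where CPM is a count per mega-count of its library. Of the fibroblast markers, Col1a1, Col1a2, Col3a1 and Lox were at least 217.8 CPM in NIH/3T3 and at most 0.737 in CGR8. Thy1 and Postn were nearly absent from NIH/3T3, Postn at 1.01 CPM or less and Thy1 at 0.0932 or less, beside 1.475 to 4.34 of Thy1 in CGR8. Some libraries lay apart from their replicates over all genes, namely NIH/3T3 1 h C and 2 h A, and CGR8 0 h B, 2 h A, 5 h A and 5 h C. For some of the results that rest on them, values without them are given as well. CPM are shares of a library, scaled by TMM factors within each line. In these bulk samples a fall in every cell and a fall in some of the cells cannot be told apart.

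Several of the 10 genes have near copies, which limits what a count per gene can say. In 75-base windows of the longest coding transcript, 54.2% of Hspa1a windows recur in other genes, and 52.7% recur in Hspa1b. For Hspa8 68.0% of windows recur in other genes, 9 in number, and 64.3% of all its windows recur in the predicted gene Gm15459. Gm15459 received counts equal to 40.1% of those of Hspa8, and its profile matched Hspa8 with a Pearson r of 0.995 over 30 libraries, so reads of one may be counted as the other. Shares were 53.1% for Hsp90aa1, 47.3% for Hspb1, 33.7% for Hspd1 and 23.7% for Hspe1. Hsph1, Dnajb1 and Bag3 shared no window. Hspa1a overlaps Gm20481 on the opposite strand over 564 exonic bases, and Hspd1 overlaps Hspe1 in the same way over 112. Whether counting used strand is not given in the sources used here.

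In untreated cells the set ran from genes at a few counts per library to some of high abundance, and the lines ranked it differently. Levels between genes are given as CPM per kb of the longest coding transcript. In NIH/3T3 the chaperonin Hspd1 stood at 1032 ± 56.6 (SD, n = 3) and the constitutive HSP70 gene Hspa8 at 991 ± 21.4. These top levels overlapped between libraries. Hspe1 at 783 ± 11.3 and Hsp90aa1 at 629 ± 37.2 followed, and each was separate from its neighbours in the order. Hsph1 stood at 148 ± 5.30, Bag3 at 53.1 ± 6.52 and Dnajb1 at 45.0 ± 3.64, with Bag3 and Dnajb1 overlapping. The stress-inducible Hspa1b was far lower at 2.33 ± 0.364, and its twin Hspa1a was at 0.0935 ± 0.0204. In CGR8 the order began with Hsp90aa1 at 1554 ± 102 and Hspa8 at 1204 ± 223, which overlapped. Hspd1 at 595 ± 41.2, Hspe1 at 416 ± 27.8 and Hspb1 at 293 ± 70.6 came next, none of them overlapping the next in order. Hsph1 was at 78.9 ± 8.16, Dnajb1 at 36.8 ± 5.65, Bag3 at 17.0 ± 1.88, Hspa1b at 1.58 ± 0.218 and Hspa1a at 0.102 ± 0.0333.

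**Figure D1:**
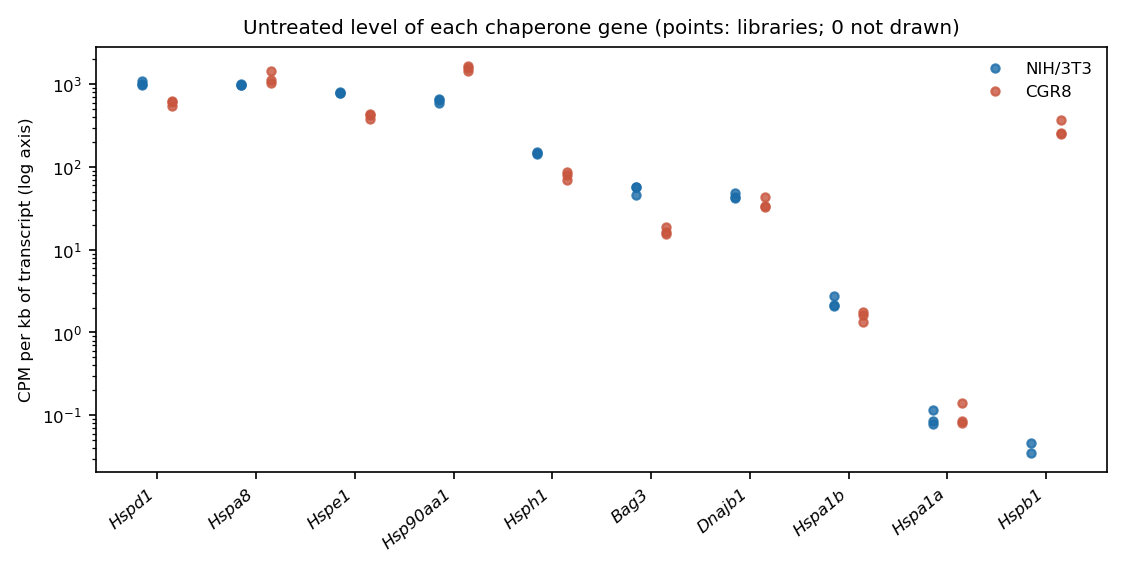
Untreated level of each gene in CPM per kb of the longest coding transcript (log axis) in the 3 libraries of NIH/3T3 and of CGR8. Hspb1 is at 0 or near 0 in NIH/3T3 (1 library at 0 is not drawn) and has a mean of 293 in CGR8, and Hspa1a and Hspa1b are low in both lines.

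Of the 9 genes tested between the untreated lines, 2 were higher and 6 lower in CGR8. The 2 higher genes include Hspb1, which held 0 to 4 counts in NIH/3T3 libraries and passed the count filter through CGR8 alone. Its call adds nothing beyond those counts. Of all genes tested 79.1% were called, 42.8% higher and 36.3% lower. Hsp90aa1, the inducible cytosolic HSP90, was higher in CGR8 by a log2 difference of 1.26 ± 0.09 (SE; edgeR adjusted p = 2.8e-13). Bag3, a co-chaperone that hands HSP70 clients to autophagy, was lower by 1.69 ± 0.15 on the log2 scale (edgeR adjusted p = 2.4e-11). Hsph1, Hspd1 and Hspe1 were lower with log2 differences of -0.95, -0.84 and -0.96, and Hspa1b with -0.62. Dnajb1 was lower by 0.34 on the log2 scale at an edgeR adjusted p of 0.0348, a call that was lost with DESeq2 (adjusted p = 0.116) and in edgeR with RLE factors (adjusted p = 0.110). It was also lost in edgeR at a mean of at least 5 CPM (adjusted p = 0.0833) and without NIH/3T3 0 h C, CGR8 0 h A or CGR8 0 h C (adjusted p up to 0.171). Hspa8 differed by 0.24 ± 0.18 and was not called (edgeR adjusted p = 0.225).

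Hspb1 encodes a small heat-shock protein that holds unfolded clients without using ATP, and it was detected above a few counts only in CGR8. NIH/3T3 libraries held between 0 and 4 counts of it at all times. CGR8 libraries held between 4047 and 8627. At 0 h the summed counts were 21559 in CGR8 and 2 in NIH/3T3, a ratio of 10150 with a 95% counting interval of 2809 to 83800. Intervals of this kind cover counting error only.

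Hspa1b, Hspa8, Hsph1 and Bag3, all of the cytosolic HSP70 machine, fell at 5 h in both lines and were higher at 48 h than at 5 h, whereas Hspe1 rose at 5 h in both lines and was lower at 48 h than at 5 h. At 1 h edgeR called 0 of 8 tested genes in NIH/3T3 and 0 of 9 in CGR8, where 0.732% and 0.270% of all genes were called. Unadjusted p-values under 0.05 numbered 0 in both lines, DESeq2 called 0 in both, and voom with sample quality weights called 2 in NIH/3T3 and 0 in CGR8. Of all genes voom called 20.7% and 6.55% at 1 h. At 2 h 6 of 8 genes were called in NIH/3T3, 5 of them lower, and 2 of 9 in CGR8, against 35.0% and 19.9% of all genes. In NIH/3T3 18.9% of all genes were lower at 2 h. At 5 h all 8 genes tested in NIH/3T3 were called, 7 lower and 1 higher, against 51.0% of all genes, with 27.1% lower. In CGR8 6 of 9 were called at 5 h, 5 lower and 1 higher, against 52.1%, with 27.2% lower. The median log2 change at 5 h was -1.30 in NIH/3T3 and -0.54 in CGR8, with medians over all genes of -0.01 in both. Hspa1a was under the count filter in both lines and Hspb1 in NIH/3T3, so these had no test there.

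At 48 h the calls against 0 h differed between the lines, whose changes already differed at 5 h in the direct test given further below. In NIH/3T3 7 of 8 genes were called against 0 h, 6 lower and 1 higher, while 52.3% of all genes were called, 25.6% lower. In CGR8 edgeR called 0 of 9, while 27.8% of all genes were called. There 1 gene had an unadjusted p under 0.05, DESeq2 called 0 and voom called 3, all of them higher, where voom called 44.3% of all genes. Between 5 h and 48 h 7 of 8 genes were called in NIH/3T3, 5 of them higher at 48 h, against 65.6% of all genes, with 34.1% higher. In CGR8 6 of 9 were called, 5 of them higher, against 57.5%, with 28.9% higher.

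**Figure D2:**
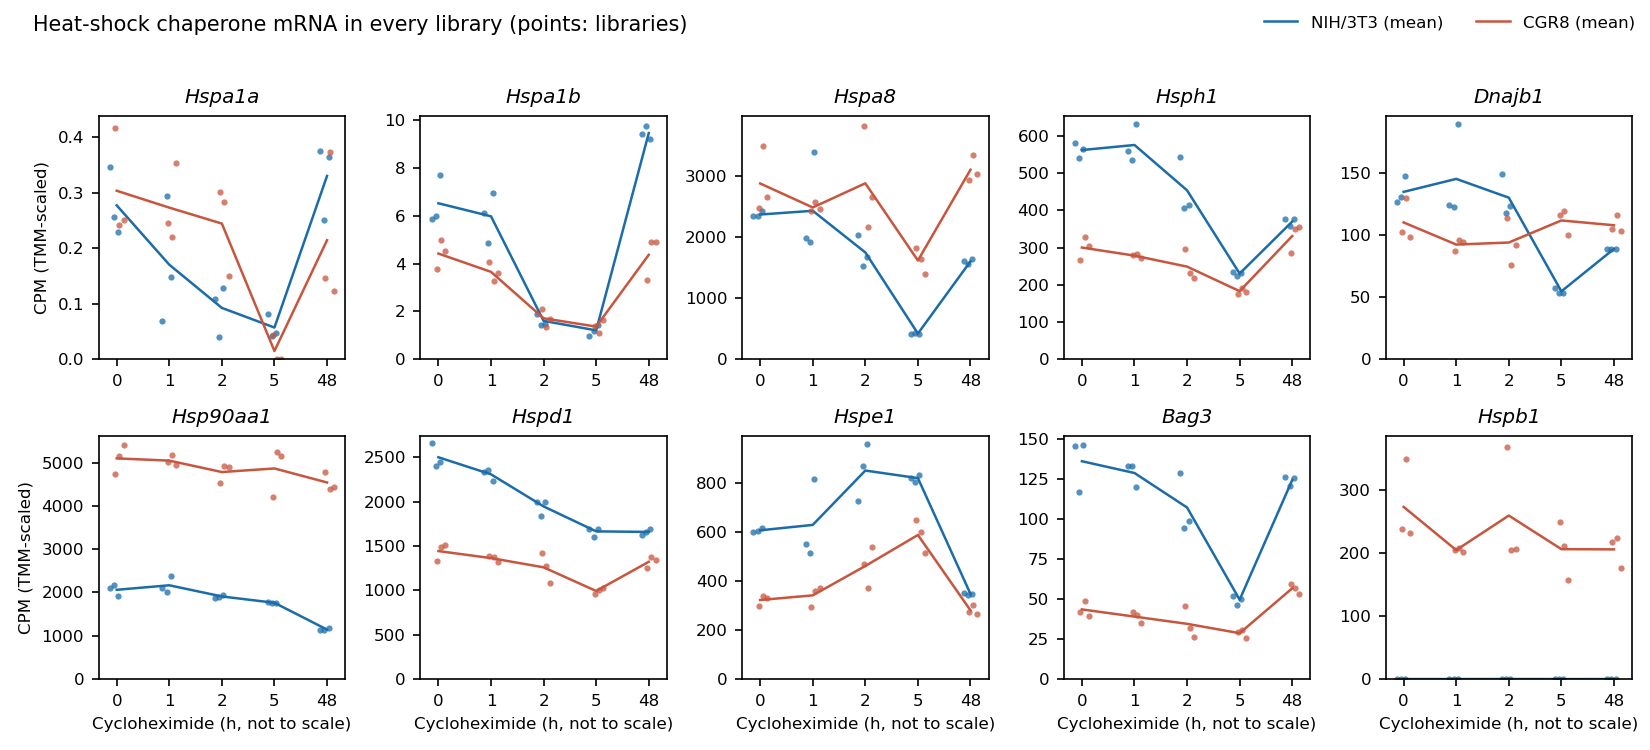
CPM of the 10 genes (TMM-scaled within each line) in every library of NIH/3T3 and CGR8 against hours of cycloheximide, on a time axis that is not to scale, with lines through the means of 3. Hspa8 in NIH/3T3 sits between 419 and 424 CPM at 5 h against at least 2340 at 0 h, and Hspe1 is the gene whose 5 h libraries lie above those of 0 h in both lines.

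Hspa1b, an HSP70 that is barely made without stress, had the largest change of the tested genes at 2 h in both lines. In NIH/3T3 it stood at 5.88, 5.98 and 7.69 CPM at 0 h in replicates A to C, and at 6.11, 4.87 and 6.94 at 1 h. It was at 1.91, 1.44 and 1.46 CPM at 2 h and at 0.989, 1.19 and 1.44 at 5 h. At 48 h it was at 9.40, 9.73 and 9.22 CPM, above each 0 h library. The drop at 2 h and 5 h and the excess at 48 h thus involved no overlap with 0 h. Such a lack of overlap was common over all genes tested. In NIH/3T3 it held for 45.1% at 2 h, 66.9% at 5 h and 70% at 48 h. The shares in CGR8 were 32.1%, 54.7% and 48.7%. They apply to the same kind of statement on other genes below. The log2 changes were -2.05 ± 0.18 (SE) at 2 h, -2.44 ± 0.19 at 5 h and 0.53 ± 0.15 at 48 h (edgeR adjusted p = 8.2e-07, 1.1e-07 and 0.00703). In CGR8 Hspa1b stood at 3.76, 4.97 and 4.52 CPM at 0 h, at 2.11, 1.34 and 1.68 at 2 h and at 1.38, 1.08 and 1.63 at 5 h. At 48 h it was at 3.30, 4.89 and 4.90 CPM, within the range of 0 h or just below it. The changes were -1.37 ± 0.21 at 2 h and -1.68 ± 0.22 at 5 h (edgeR adjusted p = 0.000664 and 2.1e-05). These values rest on 22 to 250 counts per library.

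Hspa1a, whose protein is nearly identical to that of Hspa1b, was too low for a test. Summed over 3 libraries, NIH/3T3 gave 20 counts at 0 h, 4 at 5 h and 23 at 48 h. CGR8 gave 25, 1 and 17. The ratio of 0 h to 5 h was 4.68 in NIH/3T3, with a 95% counting interval of 1.57 to 18.8, and 23.1 in CGR8, with an interval of 3.78 to 948. Adding Hspa1a to Hspa1b gave 6.79 ± 0.978 CPM (SD, n = 3) at 0 h, 1.26 ± 0.210 at 5 h and 9.78 ± 0.195 at 48 h in NIH/3T3. The sums in CGR8 were 4.72 ± 0.519, 1.38 ± 0.280 and 4.58 ± 0.985 CPM. With the counts of all genes that share a window added, the log2 change of Hspa1b at 5 h was -2.26 in NIH/3T3 and -1.44 in CGR8.

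Hspa8 encodes HSC70, the constitutive HSP70 of the cytosol, and is one of the most abundant mRNAs of the set. In NIH/3T3 it stood at 2340, 2346 and 2432 CPM at 0 h and at 420, 424 and 419 CPM at 5 h, which is 17.8% of the untreated mean. At 48 h it was at 1615, 1556 and 1645 CPM, between the levels of 5 h and 0 h with no overlap with either. A lack of overlap between 48 h and 5 h held for 79.7% of all genes tested in NIH/3T3. The log2 change of Hspa8 was -2.49 ± 0.17 at 5 h (edgeR adjusted p = 4.7e-08) and -0.56 ± 0.16 at 48 h (edgeR adjusted p = 0.00883). Leaving out any 1 library of 0 h or 5 h gave -2.51 to -2.46 at 5 h. At 2 h the values were 2044, 1530 and 1678 CPM, and the change of -0.44 passed narrowly (edgeR adjusted p = 0.0481). In edgeR that call was lost with RLE factors (adjusted p = 0.0631), with the counts of sharing genes added (adjusted p = 0.0583) and when any 1 of the 6 libraries other than 2 h A was left out (adjusted p up to 0.165). At 1 h replicate C was high at 3396 CPM beside 1984 and 1922. The change at 1 h was 0.04 with it and -0.29 without it, not called either way by edgeR (adjusted p = 0.966 and 0.0874).

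In CGR8 Hspa8 fell less. It stood at 2486, 3490 and 2668 CPM at 0 h, at 1819, 1642 and 1395 at 5 h and at 2941, 3345 and 3035 at 48 h. The 5 h libraries were below those of 0 h, at 56.2% of the 0 h mean. The log2 change at 5 h was -0.83 ± 0.18 (edgeR adjusted p = 0.00101) and ranged from -0.93 to -0.66 when 1 library was left out, with 0 h B, 5 h A and 5 h C each among those left out. At 2 h replicate A stood out at 3818 CPM beside 2172 and 2663, and the change of 0.00 was not called. With the counts of Gm15459 and the other sharing genes added, the change at 5 h was -2.48 in NIH/3T3 and -0.88 in CGR8.

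Hsph1 and Dnajb1 are partners of HSP70: Hsph1 encodes HSP110, which exchanges its nucleotide, and Dnajb1 a J-protein that delivers clients. Hsph1 stood at 580, 540 and 566 CPM at 0 h in NIH/3T3, at 236, 222 and 232 at 5 h and at 376, 358 and 376 at 48 h. CGR8 libraries had 267, 328 and 305 CPM at 0 h, 174, 193 and 182 at 5 h and 287, 351 and 356 at 48 h. Both lines thus had their lowest Hsph1 at 5 h, and at 48 h the CGR8 libraries lay within or above the 0 h range while those of NIH/3T3 lay below it. Hsph1 changed at 5 h by a log2 of -1.29 ± 0.10 in NIH/3T3 and -0.71 ± 0.12 in CGR8 (edgeR adjusted p = 1.7e-07 and 0.000182). At 48 h the change in NIH/3T3 was -0.60 ± 0.10 (edgeR adjusted p = 0.000145).

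Dnajb1 fell at 5 h in NIH/3T3 and was not called in CGR8. In NIH/3T3 it stood at 127, 131 and 147 CPM at 0 h, at 150, 118 and 123 at 2 h, at 57.8, 53.3 and 53.1 at 5 h and at 88.8, 89.2 and 88.9 at 48 h. In CGR8 it was at 103, 130 and 98.6 CPM at 0 h and at 116, 119 and 100 at 5 h. The 5 h libraries of NIH/3T3 were below its 0 h libraries, whereas those of CGR8 lay inside the 0 h range. The log2 change at 5 h was -1.30 ± 0.14 in NIH/3T3 (edgeR adjusted p = 2.4e-06) and 0.02 ± 0.14 in CGR8 (edgeR adjusted p = 0.911). At 2 h neither line had a called change of Dnajb1.

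Bag3 fell with the HSP70 genes and came back. It stood at 145, 117 and 146 CPM at 0 h in NIH/3T3, at 52.2, 46.5 and 49.9 at 5 h and at 126, 121 and 126 at 48 h. Bag3 in CGR8 was at 42.2, 48.8 and 39.4 CPM at 0 h, at 29.5, 30.6 and 25.8 at 5 h and at 59.5, 57.1 and 53.3 at 48 h. In NIH/3T3 the 48 h libraries lay inside the 0 h range, and in CGR8 they lay above it. For Bag3 the log2 change after 5 h was -1.46 ± 0.12 in NIH/3T3 and -0.60 ± 0.16 in CGR8 (edgeR adjusted p = 1.5e-07 and 0.00562). The excess of Bag3 at 48 h in CGR8, 0.38 ± 0.16, was not called by edgeR (adjusted p = 0.0880) but was called by limma's voom (adjusted p = 0.00159) and by edgeR in a fit of the compared groups alone (adjusted p = 0.0181). From 5 h to 48 h Bag3 rose by a log2 change of 1.33 in NIH/3T3 and 0.99 in CGR8.

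Hsp90aa1, a client-maturing chaperone of kinases and receptors, had its called changes in NIH/3T3 only, and the one at 48 h was the larger. In NIH/3T3 it stood at 2098, 2163 and 1926 CPM at 0 h, at 1773, 1757 and 1756 at 5 h and at 1127, 1133 and 1170 at 48 h. In CGR8 it was at 4739, 5149 and 5404 CPM at 0 h, at 4198, 5246 and 5149 at 5 h and at 4787, 4388 and 4448 at 48 h. The 48 h libraries of NIH/3T3 lay well below its 0 h libraries, with a log2 change of -0.85 ± 0.08 (edgeR adjusted p = 6.5e-07). The change of -0.23 at 5 h in NIH/3T3 (edgeR adjusted p = 0.0319) was lost with RLE factors (adjusted p = 0.0617), with no filter on low counts (adjusted p = 0.125), with the length trend removed (adjusted p = 0.207) and when any 1 of the 6 libraries other than 0 h C was left out (adjusted p up to 0.110). No comparison with 0 h was called for Hsp90aa1 in CGR8.

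The mitochondrial chaperonin is built from HSP60, encoded by Hspd1, and its lid HSP10, encoded by Hspe1. Their genes lie head to head, and at 5 h Hspd1 fell while Hspe1 rose in both lines. Hspd1 stood at 2657, 2402 and 2442 CPM at 0 h in NIH/3T3, at 1697, 1606 and 1692 at 5 h and at 1629, 1653 and 1694 at 48 h. CGR8 had Hspd1 at 1328, 1486 and 1513 CPM at 0 h, at 958, 999 and 1021 at 5 h and at 1248, 1377 and 1341 at 48 h. Hspd1 thus stayed low in NIH/3T3 and returned towards its start in CGR8. Its log2 change at 5 h was -0.59 ± 0.08 in NIH/3T3 and -0.54 ± 0.10 in CGR8 (edgeR adjusted p = 1.9e-05 and 0.000503). At 48 h the change was -0.59 in NIH/3T3 and an uncalled -0.13 in CGR8.

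Hspe1 stood at 601, 602 and 616 CPM at 0 h in NIH/3T3, at 725, 868 and 957 at 2 h, at 820, 804 and 833 at 5 h and at 352, 341 and 348 at 48 h. In CGR8 it was at 298, 337 and 332 CPM at 0 h, at 471, 372 and 540 at 2 h, at 647, 600 and 514 at 5 h and at 272, 302 and 266 at 48 h. All libraries of 2 h and 5 h were above those of 0 h in both lines. The rise at 5 h was 0.43 ± 0.14 in NIH/3T3 and 0.87 ± 0.14 in CGR8 on the log2 scale (edgeR adjusted p = 0.0142 and 8.7e-05). At 2 h it was 0.49 and 0.52 (edgeR adjusted p = 0.0124 and 0.0161). The 2 h call was lost without 2 h C in NIH/3T3 (edgeR adjusted p = 0.0655), and without 0 h A or 2 h C in CGR8 (edgeR adjusted p = 0.0755 and 0.104). At 48 h Hspe1 was lower than at 0 h in NIH/3T3 by 0.81 on the log2 scale (edgeR adjusted p = 0.000143).

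Short transcripts as a class had higher values at 2 h and 5 h too. Its longest coding transcript is 774 bases. Genes under 1000 bases had a median log2 change of 0.355 at 5 h in NIH/3T3 and 0.63 in CGR8, and 33.1% and 47.5% of them were called higher, against 24.0% and 24.9% of all genes. With a length trend removed from each library, Hspe1 at 5 h was at 0.14 in NIH/3T3, no longer called (edgeR adjusted p = 0.158), and at 0.32 in CGR8, still called (edgeR adjusted p = 0.00673). At 2 h the call was lost in both lines under this setting, with changes of 0.20 and 0.22 (edgeR adjusted p = 0.0725 and 0.0951).

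The number of Hspe1 counts per Hspd1 count had its highest mean at 5 h in both lines. It was 0.243 ± 0.0146 (SD, n = 3) at 0 h in NIH/3T3, 0.438 ± 0.0650 at 2 h, 0.492 ± 0.00862 at 5 h and 0.209 ± 0.00589 at 48 h. In CGR8 it was 0.223 ± 0.00363, 0.374 ± 0.109, 0.593 ± 0.0860 and 0.212 ± 0.0119. The 5 h libraries held more Hspe1 per Hspd1 than any library of 0 h, 1 h or 48 h. At 48 h in NIH/3T3 both genes were lower than at 0 h, and the ratio was just below that of 0 h. The ratio was not adjusted for transcript length. Hspe1 has 774 bases and Hspd1 2423, and short transcripts as a class were higher at 2 h and 5 h.

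**Figure D3:**
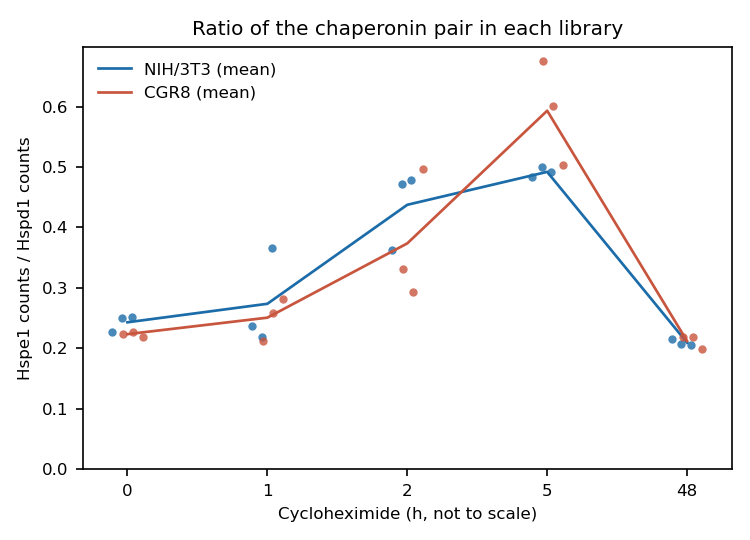
Hspe1 counts divided by Hspd1 counts in each library against hours of cycloheximide (time axis not to scale), with lines through the means of 3 in NIH/3T3 and CGR8. The ratio goes from means of 0.243 and 0.223 at 0 h to 0.492 and 0.593 at 5 h and is back at 0.209 and 0.212 at 48 h. It is not adjusted for transcript length.

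Hspb1 in CGR8 stood at 238, 348 and 232 CPM at 0 h, at 367, 205 and 205 at 2 h, at 249, 210 and 157 at 5 h and at 217, 224 and 175 at 48 h. At 1 h it was at 204, 207 and 201 CPM. The 2 h and 5 h libraries overlapped those of 0 h. Those of 1 h and 48 h lay below all 0 h libraries, with uncalled log2 changes of -0.42 and -0.41 (edgeR adjusted p = 0.656 and 0.178). Such a lack of overlap at 1 h in CGR8 held for 25.1% of all genes tested, with 12.6% lower. The highest Hspb1 values were those of 0 h B and 2 h A, both among the libraries that lay apart. The change of -0.41 ± 0.22 at 5 h was not called (edgeR adjusted p = 0.130). In edgeR it was called with library size alone for scaling (-0.51, adjusted p = 0.0399), with no filter on low counts (adjusted p = 0.00523) and with the length trend removed (-0.90, adjusted p = 0.000468). The change was -0.18 without 0 h B, -0.25 without 5 h C and -0.55 without 5 h A, not called by edgeR in any of these fits (adjusted p = 0.526, 0.372 and 0.0746). At 930 bases its longest coding transcript is short, so that its change against genes of like length was more negative than its change against all genes.

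**Figure D4:**
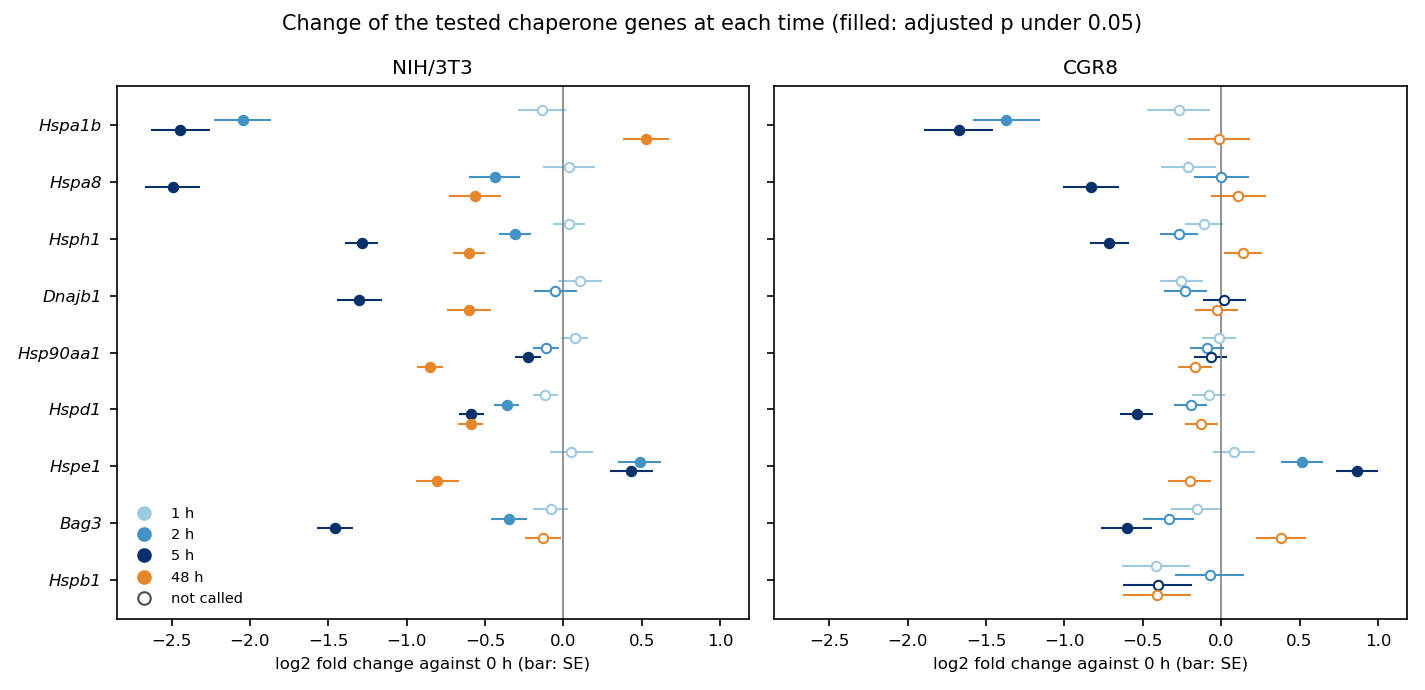
Log2 fold change against 0 h (bars: SE) of the tested genes in NIH/3T3 and CGR8 at 1, 2, 5 and 48 h, filled where the edgeR adjusted p is under 0.05. Hspa1b and Hspa8 reach -2.44 and -2.49 in NIH/3T3 at 5 h, Hspe1 is to the right of 0 at 2 h and 5 h, and in CGR8 no 48 h point is filled.

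At 2 h in NIH/3T3 the calls of Hsph1 and Bag3 lay close to the threshold. Hsph1 stood at 543, 405 and 413 CPM there and Bag3 at 128, 94.5 and 98.4, with log2 changes of -0.31 and -0.35 (edgeR adjusted p = 0.0287 and 0.0266). Both calls were lost without 0 h A, 0 h C, 2 h B or 2 h C, with changes of -0.29 to -0.23 for Hsph1 and -0.30 to -0.26 for Bag3 (edgeR adjusted p up to 0.165 and 0.133). They were also lost in a fit of the compared groups alone, with changes of -0.31 and -0.34 (edgeR adjusted p = 0.0689 and 0.0815), and that of Hsph1 with the length trend removed (-0.20, edgeR adjusted p = 0.143). Hspd1 stood at 1999, 1840 and 2000 CPM, below all its 0 h libraries, with a change of -0.36 (edgeR adjusted p = 0.00297). In both lines 2 h A was the highest of the 3 libraries of 2 h for Hspa8, Hsph1, Dnajb1 and Bag3. Without CGR8 2 h A, 5 genes in place of 2 were called at 2 h in CGR8, with Hsph1, Dnajb1 and Bag3 lower by 0.42, 0.39 and 0.59 on the log2 scale. The share of all genes called in that fit is not given here, so the added calls may not be particular to the set.

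Whether the lines differed in these changes was tested directly, as the change in CGR8 minus that in NIH/3T3. At 5 h 4 of 9 genes were called, all with the higher value in CGR8, against 13.3% of all genes, with 8.18% higher in CGR8. The 9 genes at each time include Hspb1, which was nearly absent from NIH/3T3. Its difference had an SE of 1.37 at 2 h and 2.17 at 5 h, so that it could hardly be called. Hspa8 differed by a log2 of 1.75 ± 0.25 and Dnajb1 by 1.41 ± 0.21 (edgeR adjusted p = 2.4e-05 and 2.5e-05). Bag3 differed by 0.94 ± 0.21 and Hsph1 by 0.66 ± 0.16 (edgeR adjusted p = 0.00245 and 0.00544). The fall of these HSP70-system mRNAs was thus smaller in CGR8, or absent from the calls in the case of Dnajb1. Hspa1b differed by 0.85 ± 0.30 and was not called (edgeR adjusted p = 0.0582), but was called with the counts of sharing genes added (0.90, edgeR adjusted p = 0.0203). With voom 6 differences were called at 5 h, against 36.3% of all genes. Voom added Hsp90aa1 (0.34, voom adjusted p = 0.00151) and Hspe1 (0.58, voom adjusted p = 0.00117), and not Hspa1b. In edgeR Hsp90aa1 differed by 0.25 ± 0.13 and Hspe1 by 0.52 ± 0.20, both uncalled (edgeR adjusted p = 0.206 and 0.0872). With the compared groups alone Hspe1 was called (0.51, edgeR adjusted p = 0.0216). Hspd1 differed by 0.14 ± 0.12 (edgeR adjusted p = 0.522). Without CGR8 5 h A the Hsph1 difference was 0.51 (edgeR adjusted p = 0.0591), and without CGR8 5 h B it was 0.45 (edgeR adjusted p = 0.0974). Without CGR8 0 h B Hspa1b was called as well, at 0.95 (edgeR adjusted p = 0.0430), and without CGR8 5 h C Hspe1 was, at 0.62 (edgeR adjusted p = 0.0376).

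At 48 h 4 of 9 genes differed, again with the higher value in CGR8, against 21.9% of all genes, with 9.78% higher in CGR8. These were Hsph1 by 0.73 ± 0.16, Hsp90aa1 by 0.67 ± 0.13, Hspd1 by 0.45 ± 0.12 and Hspe1 by 0.59 ± 0.20 on the log2 scale (edgeR adjusted p = 0.00122, 0.000264, 0.00763 and 0.0370). Hspa1b had the opposite sign, -0.56 ± 0.25, and was not called by edgeR (adjusted p = 0.112) but was by voom (-0.47, adjusted p = 0.0494). The Hspe1 call was lost without any 1 of NIH/3T3 0 h C, 48 h B, 48 h C, CGR8 0 h A or 48 h B. Without CGR8 0 h B, 7 genes were called, with Hspa8, Dnajb1 and Bag3 added. The share of all genes called in that fit is not given here either. Dnajb1 was also called without NIH/3T3 0 h A, and Bag3 without NIH/3T3 0 h B. At 1 h and 2 h edgeR called 0 of 9 differences, against 0.160% and 2.02% of all genes. Unadjusted p-values under 0.05 numbered 0 at 1 h and 1 at 2 h, DESeq2 called 0 at both, and voom called 0 at 1 h and 1 at 2 h, with 1.48% and 4.04% of all genes called by voom.

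Likeness between profiles was taken as Pearson's r of log2 CPM, centred on the mean of each line, over the 30 libraries. Hspa8 and Hsph1 had a Pearson r of 0.922, Hsph1 and Bag3 of 0.887, and Hspa8 and Bag3 of 0.885. Dnajb1 followed Hspa8 at 0.852. Hspd1 and Hspe1 had an r of -0.245, and Hsp90aa1 had 0.161 with Hspa8. All points of a library share its depth and its time, so these values are descriptions. The 3 nearest profiles to each gene were taken among the 7255 genes whose mean reached 10 CPM in each line. Those of Hspa1b were Sesn2, a stress-inducible sestrin gene, at 0.929, Mapk7 at 0.923 and Zc3h7b at 0.916. To Hspa8 the nearest were Gm15459 at 0.995, Hsph1 at 0.922 and Tmem19 at 0.915. Hsph1 was nearest to Lmnb1, which encodes lamin B1, at 0.943, then to Gm15459 and 4833439L19Rik, both at 0.936. For Bag3 they were the mitotic genes Kifc1 at 0.957 and Tpx2 at 0.954, and Etv5 at 0.949. The nearest to Hspd1 were Limk1 at 0.95, Tnfrsf22 at 0.941 and Traf7 at 0.940. The nearest to Hspe1 were Psma7, a proteasome subunit, at 0.991, Med28 at 0.988 and Polr2d at 0.987. For Dnajb1 they were Cdca3 at 0.883, Dnaja1, another J-protein gene, at 0.880 and Calm3 at 0.870. Polr3g, a subunit of RNA polymerase III, was nearest to Hsp90aa1 at 0.935, before Slc35g1 at 0.921 and Sqle at 0.920.

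A wider list of 48 other heat-shock and chaperone genes gave the surroundings of the set. At 5 h 8 of 44 tested genes were higher and 18 lower in NIH/3T3, and 10 of 46 higher and 8 lower in CGR8. Of all genes 24.0% were higher and 27.1% lower in NIH/3T3, and 24.9% and 27.2% in CGR8. At 48 h 3 were higher and 26 lower in NIH/3T3, where 26.7% of all genes were higher and 25.6% lower. In CGR8 7 were higher and 7 lower at 48 h, where the shares of all genes were 12.2% and 15.6%. In NIH/3T3 at 48 h the falls included 7 of 9 HSP90 co-chaperones and paralogs and 10 of 18 tested HSP70-system genes, where 25.6% of all genes were lower. Of 8 mitochondrial chaperones and proteases there, 3 were higher and 4 lower. At 5 h 4 of 18 HSP70-system genes of this list were higher and 7 lower in NIH/3T3. In CGR8 4 of 19 were higher and 4 lower at 5 h, so these did not fall as a group. At 5 h in CGR8, 4 of 8 mitochondrial chaperones and proteases were higher and 0 lower, with a median log2 change of 0.18, beside 24.9% higher and 27.2% lower over all genes.

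Hsf1, the gene of the factor itself, was lower at 5 h in both lines. Its mean was 94.6 ± 9.09 CPM at 0 h, 63.6 ± 3.34 at 5 h and 101.9 ± 4.15 at 48 h in NIH/3T3, and 44.4 ± 1.56, 23.5 ± 0.654 and 42.4 ± 2.52 in CGR8 (SD, n = 3). The log2 change at 5 h was -0.57 ± 0.10 in NIH/3T3 and -0.92 ± 0.11 in CGR8 (edgeR adjusted p = 0.000226 and 1.2e-05). Hsbp1, which encodes a small protein that binds the factor's trimers, rose at 5 h, with log2 changes of 0.43 in NIH/3T3 and 0.83 in CGR8 (edgeR adjusted p = 0.00644 and 0.000112). In NIH/3T3 Dnaja1 had the largest fall of the wider list at 5 h among genes of at least 10 CPM, from 266.9 to 137.8 CPM (log2 change -0.95). Bag5, an HSP70 nucleotide exchange factor, had the largest rise, from 28.2 to 48.9 CPM (0.79). In CGR8 at 5 h the largest rise was that of Hspa14, a ribosome-associated HSP70, from 143.8 to 280.5 CPM (0.96).

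At 48 h Bag1 had the largest fall of the list in NIH/3T3, with a log2 change of -1.11, and Clpx, a mitochondrial unfoldase, the largest rise at 0.42. In CGR8 Serpinh1, the collagen chaperone HSP47, had the largest fall, from 32.0 to 16.0 CPM, and the J-protein gene Dnajb5 the largest rise, with a log2 change of 0.70. Zfand2a, a heat-shock target that binds the proteasome, had a log2 difference between the lines of 0.92 at 5 h. Zfand2a, Hsbp1 and, in NIH/3T3, Hsf1 were named after their values were seen. Of the 47 genes of the wider list tested between the lines, 13 had the higher change in CGR8 and 2 the lower at 5 h, where 8.18% of all genes had the higher and 5.09% the lower. At 48 h the counts were 16 and 2, where the shares of all genes were 9.78% and 12.1%.

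**Figure D5:**
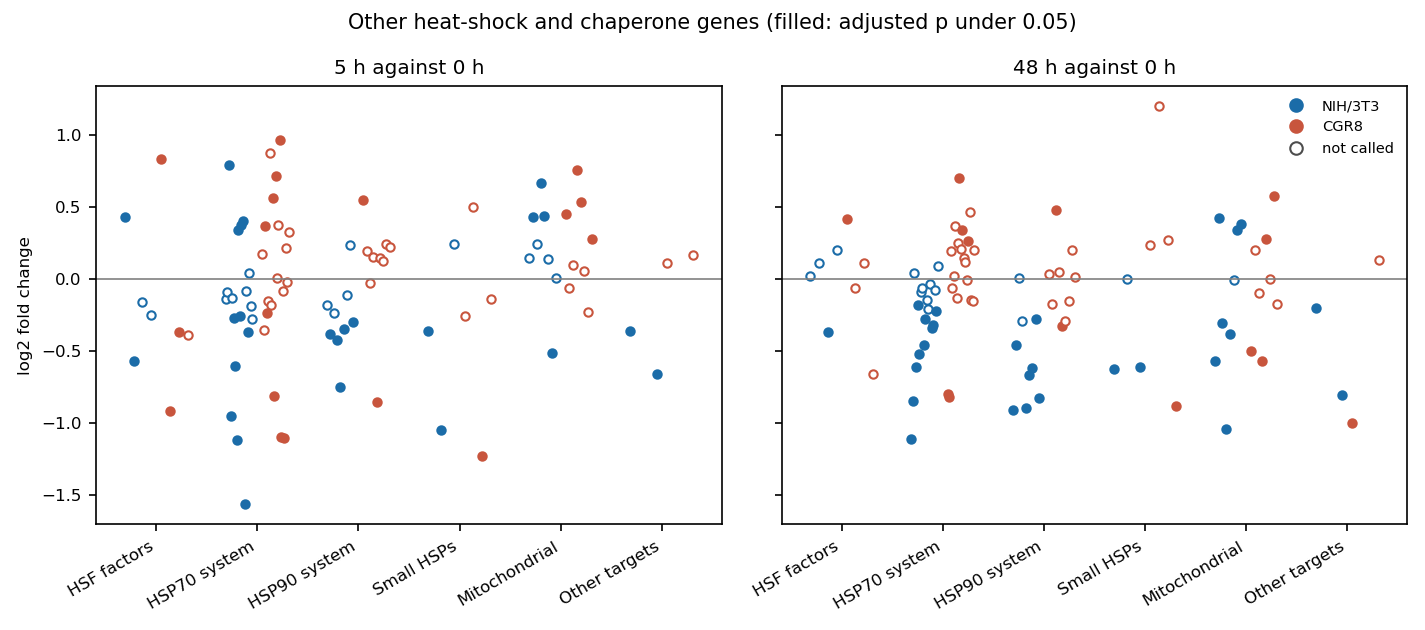
Log2 fold change against 0 h of the tested genes of the wider list in NIH/3T3 and CGR8 at 5 h and 48 h, grouped by role, filled where the edgeR adjusted p is under 0.05. At 48 h filled points of NIH/3T3 lie mostly below 0 (3 higher, 26 lower), and those of CGR8 are split evenly (7 and 7).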

How the data were processed

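The authors deposited whole-number read counts per gene, 1 column per library, for 30 libraries. Per the labels' protocols, column-purified RNA went into stranded, ligation-based mRNA libraries. The submitters' processing notes name STAR, DESeq2 and build GRCm39, without roles or versions. All 30 columns were mapped by their labels and 0 were left out. Symbols came from a reference table, in which 51880 identifiers (90.7%) had one. Transcript lengths and shared 75-base windows came from GENCODE M21 on GRCm38, so no coordinates are given for the counted genes.

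Counts were fitted in R 4.3.3 with edgeR 4.0.16: filterByExpr (minimum count 10, total 15), TMM factors, the quasi-likelihood F test, and Benjamini-Hochberg adjustment over all genes tested. Calls needed an adjusted p under 0.05. Each line was fitted alone with its 15 libraries. The lines were compared in 1 fit of all 30. Standard errors follow from the fold change and the F value. The alternatives were RLE factors, library size alone, DESeq2 1.42.0, voom with sample quality weights (limma 3.58.1), no filter, a mean of at least 5 CPM, compared groups alone, a replicate block, and each library left out. Removal of a length trend, and adding the counts of genes that share sequence, were chosen after seeing the data. The tests were checked on simulated data. Likeness used log2(CPM + 0.1).

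All 10 genes are named. From the wider list the rule names the called gene with the largest rise and fall per line at 5 h and 48 h, if its higher group has a mean of 10 CPM or more, and for each of the 10 fitted in both lines the 3 nearest profiles among genes whose mean reached 10 CPM in each line. The genes and lists were chosen with earlier results of these data known.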

Additional observations from a re-analysis of the deposited data

Results flagged for a closer look

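Each of these results is a difference between the lines in the change from 0 h, in CGR8 minus NIH/3T3, that passed its own test in the 30-library edgeR fit. At 5 h these were Hspa8 (1.75 on the log2 scale), Dnajb1 (1.41), Bag3 (0.94) and Hsph1 (0.66). When 1 of the 12 libraries was left out in turn, the difference ranged from 1.47 to 1.91 for Hspa8, from 1.19 to 1.54 for Dnajb1 and from 0.72 to 1.05 for Bag3, and each stayed past the threshold (edgeR adjusted p up to 0.000444, 0.000580 and 0.0326). That of Hsph1 ranged from 0.45 to 0.73 and was lost without CGR8 5 h A or B (edgeR adjusted p up to 0.0974).

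At 48 h the differences were those of Hsph1 (0.73), Hsp90aa1 (0.67), Hspe1 (0.59) and Hspd1 (0.45). Hsph1 ranged from 0.65 to 0.83 with 1 library left out (edgeR adjusted p up to 0.00619), and Hspe1 from 0.53 to 0.64 (edgeR adjusted p up to 0.0961). The lines also differ in medium, so line and medium cannot be told apart. Groups of 3 libraries were not tested for outliers.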

How the results depend on the processing

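Over the 9 genes with a test and 15 comparisons, 2286 values under an alternative were compared with their main value: 2195 stayed on the same side of the threshold, 46 lost a call, 43 gained one and 2 turned direction. The 2 were Hspa8 at 1 h in NIH/3T3, -0.25 with voom against 0.04 (voom adjusted p = 0.00340), and Hspb1 in CGR8 at 48 h against 5 h, 0.56 with the length trend removed against 0.00 (edgeR adjusted p = 0.0112). In the first case 1 h C lies apart, and without it edgeR gave -0.29, not called (edgeR adjusted p = 0.0874). No cause of these changes was tested.

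Counts of called genes moved over 1.5 times as follows. At 1 h in NIH/3T3 voom called 2 in place of 0. At 2 h in CGR8, with 2 called, 1 was called at a mean of at least 5 CPM, 1 with the length trend removed and 1 with the compared groups alone. At 48 h in CGR8, with 0 called, voom called 3, no filter 2, the length trend removed 1 and compared groups alone 1. For the line difference at 2 h voom called 1 in place of 0. For that at 48 h, with 4 called, voom called 8 (7 higher in CGR8 and Hspa1b lower), no filter 7 and compared groups alone 7. Of all genes voom called 43.4% in that comparison, against 21.9% in the main fit. With 1 library left out, the counts ranged from 2 to 6 at 2 h in NIH/3T3 (6 called), from 1 to 5 at 2 h in CGR8 and from 3 to 7 for the line difference at 48 h. At 2 h in NIH/3T3 3 were called without 0 h A, 0 h C or 2 h B and 2 without 2 h C, at 2 h in CGR8 5 without 2 h A, and for the line difference at 48 h 7 without CGR8 0 h B. The counts at 5 h ranged from 7 to 8 in NIH/3T3, stayed at 6 in CGR8 and ranged from 3 to 5 for the line difference. Shares of all genes called are given for the main fit and voom alone, so the other counts have no such comparison.

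Pairing of libraries by replicate letter was described and not tested. Deviations of same-letter libraries had median correlations of -0.028 to 0.191, with single pairs from -0.657 (CGR8 B) to 0.527 (CGR8 C). The best partner of a library had its letter in 7 of 15 cases for NIH/3T3 and in 5 of 15 for CGR8. These values do not settle whether letters pair the libraries. With the replicate block, 1 gene in place of 0 was called at 48 h in CGR8, Bag3 at 0.38 (edgeR adjusted p = 0.0446), and Bag3 was called in the line difference at 48 h (edgeR adjusted p = 0.0340). Scaling by library size alone moved the median of all genes from -0.01 to -0.12 at 5 h in CGR8 and from 0.13 to -0.06 in the line difference at 5 h. Depth limits Hspa1a, and Hspb1 in NIH/3T3, to counts without a test.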
